A study of Mus musculus with 13 samples.

Results

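The 10 genes described here encode calcineurin, the NFAT transcription factors and the Rcan regulators of calcineurin, among the 40787 genes of an RNA sequencing table of mouse sciatic nerve. They are Ppp3ca, Ppp3cb, Ppp3r1, Nfatc1, Nfatc2, Nfatc3, Nfatc4, Nfat5, Rcan1 and Rcan2. The set was chosen by the count of Ppp3ca, which was much lower in injured Raptor knockout nerves than in injured control nerves. That comparison is therefore described with no test, whereas uninjured nerves and the responses to injury were tested. All 10 genes passed the count filter in each of 4 comparisons.

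Calcineurin is the phosphatase that answers a rise in cytosolic calcium. It is made of a catalytic subunit (encoded by Ppp3ca, Ppp3cb or, less widely, Ppp3cc) and a calcium-binding regulatory subunit (Ppp3r1). It removes phosphates from NFATc proteins, which then enter the nucleus, and NFATc4 is known in Schwann cells (SCs) for its part with Sox10 in the onset of myelin gene expression. Nfat5 belongs to the same family by its DNA-binding region but is not regulated by calcineurin. It is best known as the factor that switches on osmoprotective genes in hypertonic conditions. Rcan proteins bind and restrain calcineurin, and the shorter Rcan1 transcript is itself a well-known NFAT target.

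The series holds 13 libraries, each from 1 sciatic nerve of a C57BL/6 mouse collected 5 days after a unilateral crush (5 dpc). All mice carried floxed Rptor alleles and received tamoxifen when 2 months old, and surgery followed after 2 more months. Controls carried no Cre and gave 3 injured and 3 contralateral nerves. RaptorKOs also carried Plp1CreERT2, an inducible Cre driven by the promoter of a glial myelin gene, and gave 3 injured and 4 contralateral nerves. Rptor encodes Raptor, the subunit that defines mTORC1. From injured nerves the part distal to the crush was used. RNA came from nerve without epineurium, so each library mixes SCs with all other cells of the nerve. Fewer cells of a type cannot be told apart from less RNA per cell. The crush was unilateral and the study sequenced injured nerves with their contralateral ones, so same-numbered libraries of a genotype may be 2 nerves of 1 mouse, which the labels do not state. Where libraries did not come from separate animals, the p-values measure only the spread between these samples.

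Library totals ranged from 8200476 to 13581788 counts. Values are given as CPM, the counts scaled to a common library total with TMM factors, and differences as log2 fold changes with their standard error (SE). Rptor itself was lower in RaptorKO than in control contralateral nerves by a log2 fold change of -0.998 (SE 0.12, edgeR quasi-likelihood test, adjusted p = 5e-04) and lower in injured nerves by -0.68 (SE 0.15, adjusted p = 0.0167), and it was above 0 in all RaptorKO libraries. The contralateral and the injured library numbered 3 of the controls stood apart from the other 11, with 15017 and 14462 Xist counts against 4 to 17, and with 10 and 20 counts over 4 Y-linked genes against 1456 to 2338. The labels give no sex, and the study used mice of either sex. No RaptorKO library had this pattern of high Xist and low Y-linked counts, so it is not balanced between genotypes. Several results are given below also without the libraries of control 3, whereas others, among them the catalytic subunit shares, are given only with them.

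SC markers were abundant, with a summed level of 67231 to 73947 CPM in control contralateral and 58172 to 71007 CPM in RaptorKO contralateral nerves. In contralateral nerves, 4 of 10 SC markers were lower in RaptorKOs and 1 was higher, while 5 of 7 tested macrophage markers were higher (summed level 119 to 150 CPM in controls against 203 to 267 CPM in RaptorKOs), as were 3 of 6 fibroblast and perineurial markers (4316 to 4980 against 6526 to 9246 CPM) and 2 of 5 tested mast cell markers (12.2 to 59.6 against 81.3 to 140 CPM, summed over all 6). In injured RaptorKO nerves, 5 of 6 mast cell and 6 of 6 endothelial markers were higher than in injured controls. So were 5 of 6 pericyte and smooth muscle and 3 of 6 fibroblast and perineurial markers. Lower were 3 of 10 SC markers, and 0 of 8 macrophage markers were called. The 1 tested neuron marker, Tubb3, was lower too (222 CPM in injured controls, 125 CPM in injured RaptorKOs). Tubb3 was at 7.18 CPM in control contralateral nerves. The other neuron markers were near 0 after injury, with Snap25 at 0.0931 CPM in controls and 0.581 CPM in RaptorKOs. The Tubb3 value is therefore not read as a level of neuronal RNA. Over all genes tested, 10.2% were called in contralateral and 8.54% in injured nerves. T cells, where NFAT was first described, left little RNA here: their 7 markers summed to 1.46 to 3.17 CPM in control contralateral nerves, with Cd3e and Cd8a at 0, and to at most 30.8 CPM in any library, with Cd3d at 0 in both injured groups. The part of these cell types in the results below was not tested.

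Ppp3ca, the catalytic subunit gene that predominates in brain, lies on chromosome 3 of GRCm38 from 136670124 to 136937727 on the plus strand (ENSMUSG00000028161). In contralateral nerves its level was 143, 168 and 175 CPM in control libraries. The 4 RaptorKO libraries held 67.3, 73.1, 60.4 and 84.5 CPM. Every RaptorKO nerve lay below every control nerve. These nerves were not in the comparison that chose the genes, although some may come from the same mice. The genes were also chosen with earlier results of these data known. Ppp3ca was 2.24-fold lower in RaptorKO than in control contralateral nerves (log2 fold change -1.16, SE 0.12, edgeR quasi-likelihood test, adjusted p = 0.000219). Its log2 fold change was the 67th lowest of 11878 genes tested. Over 14 alternative settings it stayed between -1.26 and -1.09, with adjusted p between 2.02e-17 and 0.00254, and without control contralateral 3 it was -1.10 (adjusted p = 0.00169).

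In injured nerves, the comparison that chose the set, Ppp3ca was at 131, 143 and 146 CPM in control libraries, against 49.6, 51.3 and 49.0 CPM in RaptorKO libraries. The 3 RaptorKO nerves were close to each other, and all lay below the controls. The log2 fold change was -1.47 (SE 0.10), a 2.76-fold lower level and the 52nd lowest of 12040 genes tested. Without control injured 3 it was -1.43. Crush itself went with a smaller difference in Ppp3ca. Mean levels were 162 ± 16.9 CPM (SD, n = 3) in contralateral and 140 ± 8.09 CPM (SD, n = 3) in injured controls, a log2 fold change of -0.26 (SE 0.10). In RaptorKOs the mean was 71.3 ± 10.2 CPM (SD, n = 4) in contralateral nerves, against the 3 injured values above, a log2 fold change of -0.54 (SE 0.12). Both injury values are descriptions, since they share injured libraries with the comparison that chose Ppp3ca, and whether they differ was not tested.

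**Figure D1:**
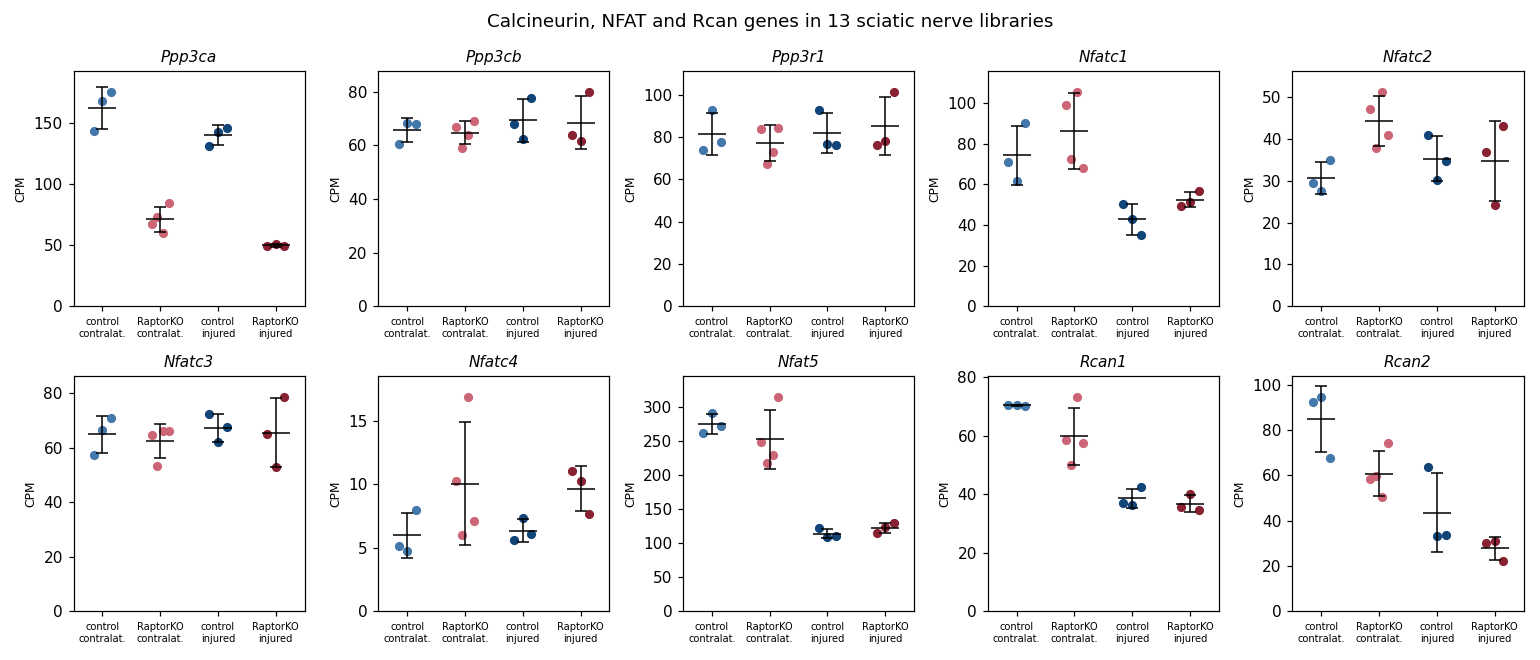
Level of each of the 10 genes in CPM (y axis, from 0) in the 4 groups (x axis), with a point for each nerve and a bar at the mean with its SD. Ppp3ca lies lower in both RaptorKO groups, Nfat5, Rcan1, Rcan2 and Nfatc1 lie lower in both injured groups, and Ppp3cb, Ppp3r1 and Nfatc3 lie at about the same height throughout.

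The other catalytic subunit gene did not move with Ppp3ca. Ppp3cb (chromosome 14, 20499364 to 20546573, minus strand) was between 59.1 and 79.9 CPM in all 13 libraries, and its groups overlapped in every comparison. Its log2 fold change between contralateral genotypes was -7e-04 (SE 0.09, adjusted p = 0.998), and in injured nerves it was -2e-04 (SE 0.14). The regulatory subunit gene Ppp3r1 (chromosome 11, 17159263 to 17200375, plus strand) ranged from 67.2 to 101 CPM. Its log2 fold change was -0.06 (SE 0.12, adjusted p = 0.817) between contralateral genotypes, and 0.08 (SE 0.13) between injured genotypes. After injury neither gene passed the test, with log2 fold changes of 0.03 (Ppp3cb) and -0.04 (Ppp3r1) in controls and of 0.06 and 0.12 in RaptorKOs. The exons of Ppp3r1 overlap those of Wdr92 on the same strand, which held at most 117 counts against 1145 for Ppp3r1.

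Transcript levels can be compared between genes only per length, here as CPM per kilobase of exon. On that scale Ppp3ca made up 46.7% ± 2.80 (SD, n = 3) of the summed level of the 3 catalytic subunit genes in control contralateral nerves and 25.9% ± 2.38 (SD, n = 4) in RaptorKO contralateral nerves. The shares were 43.6, 47.4 and 49.0% in controls against 26.7, 26.9, 22.4 and 27.7% in RaptorKOs, and did not overlap. The difference of -20.8 percentage points had p = 0.0286 in an exact two-sided permutation test, the smallest that the 35 arrangements of these libraries can give. The share uses the same Ppp3ca counts as the test above, so it is not independent support. In injured nerves, as a description, the share was 49.7% ± 2.56 (SD, n = 3) in controls and 23.3% ± 1.77 (SD, n = 3) in RaptorKOs. With the longest transcript as the length of each gene the contralateral shares were 50.05% and 28.9%.

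With a lower Ppp3ca share, the shares of both other genes were higher in RaptorKO nerves. That of Ppp3cb was 26.8% ± 2.37 (SD, n = 4) in contralateral and 36.0% ± 3.29 (SD, n = 3) in injured RaptorKO nerves. In controls it was 21.4% ± 0.473 and 27.8% ± 2.19 (SD, n = 3 each), although the level of Ppp3cb differed little, as given above. Ppp3cc, the third catalytic subunit gene, had 47.4% ± 3.19 (SD, n = 4) in contralateral and 40.7% ± 2.18 (SD, n = 3) in injured RaptorKO nerves. The Ppp3cc shares in controls were 31.9% ± 3.23 (SD, n = 3) and 22.4% ± 2.74 (SD, n = 3). Its own level did not pass the test between contralateral genotypes (33.0 ± 1.79 CPM, SD, n = 3, in controls and 39.0 ± 4.42 CPM, SD, n = 4, in RaptorKOs, log2 fold change 0.26, edgeR adjusted p = 0.206). In injured nerves it was at 18.9 ± 1.95 CPM (SD, n = 3) in controls and 26.2 ± 2.04 CPM (SD, n = 3) in RaptorKOs, a log2 fold change of 0.49 (SE 0.15) that is given with no test. Injury lowered Ppp3cc by a log2 fold change of -0.85 in controls (edgeR adjusted p = 0.000125) and of -0.60 in RaptorKOs (adjusted p = 0.00271).

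**Figure D2:**
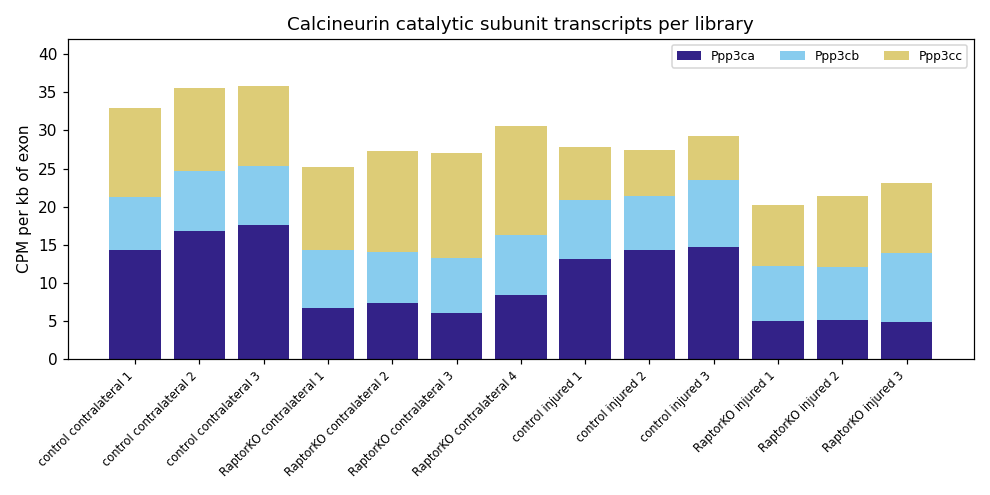
Stacked level of the 3 catalytic subunit genes in CPM per kilobase of exon (y axis, from 0) in each of the 13 libraries (x axis). The Ppp3ca block is shorter in every RaptorKO library than in every control library, and the Ppp3cb block differs little between libraries.

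Across the 10 genes, 2 were called in contralateral nerves at an adjusted p below 0.05 and a fold change above 1.2, Ppp3ca lower and Nfatc2 higher, where 10.2% of all genes tested were called (5.68% lower and 4.49% higher). Both were also the only members whose genotypes did not overlap, against 23.7% of all genes. The median log2 fold change of the 10 was -0.04, and that of all genes tested was 0.01. In injured nerves the groups of 3 of 10 did not overlap, against 26.2% of all genes. They were Ppp3ca, Rcan2 and Nfatc4, and nothing is read from this count because this comparison chose the set.

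Nfatc2 encodes the NFAT protein that is best known from T cells. Its contralateral levels were 29.6, 27.6 and 34.9 CPM in control libraries, against 47.3, 37.9, 51.2 and 40.9 CPM in RaptorKO libraries. The genotypes did not overlap, although the highest control nerve and the lowest RaptorKO nerve lay close together. Nfatc2 rose by a log2 fold change of 0.55 (SE 0.13, edgeR adjusted p = 0.0259). The call was lost without control contralateral 1 (adjusted p = 0.102), without control contralateral 2 (adjusted p = 0.124), without RaptorKO contralateral 1, and with all 13 libraries in 1 fit (adjusted p = 0.0674), and it held without control contralateral 3 (adjusted p = 0.0355). Macrophage, mast cell and fibroblast markers were higher in the same RaptorKO nerves, as given above. In injured nerves the log2 fold change of Nfatc2 was -0.01 (SE 0.20), with 30.3 to 41.0 CPM in controls and 24.2 to 43.2 CPM in RaptorKOs.

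Among the other calcineurin-regulated factors, Nfatc3 (chromosome 8, 106058840 to 106130537, plus strand) was the steadiest, between 53.0 and 78.5 CPM in all libraries, with a log2 fold change of -0.03 (SE 0.11) between contralateral genotypes. Its exons overlap those of Esrp2 on the opposite strand, which held at most 13 counts in any library. Nfatc4, the family member tied to myelination, was the lowest of the 10. It was at 5.16, 4.78 and 7.99 CPM in control and 10.2, 6.03, 16.8 and 7.11 CPM in RaptorKO contralateral nerves. These ranges overlap, and the log2 fold change of 0.78 (SE 0.36) did not pass the test (edgeR adjusted p = 0.208). In injured nerves it was at 5.64, 7.38 and 6.06 CPM in control and 11.02, 10.3 and 7.64 CPM in RaptorKO libraries, a log2 fold change of 0.62 (SE 0.25). The injured ranges do not overlap, by a narrow gap. Nfatc1 (chromosome 18) was at 61.7 to 90.1 CPM in control and 68.0 to 105 CPM in RaptorKO contralateral nerves and did not pass the test (log2 fold change 0.24, SE 0.17, adjusted p = 0.438). Between injured genotypes, as a description, the log2 fold change was 0.31 (SE 0.14) for Nfatc1 and -0.02 (SE 0.14) for Nfatc3.

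Per kilobase of exon, the 10 genes in control contralateral nerves were ordered as follows. Ppp3r1 stood highest at 25.3 ± 3.08 CPM per kb (SD, n = 3), followed by Rcan1 at 22.8 ± 0.028, Rcan2 at 19.4 ± 3.37, Ppp3ca at 16.3 ± 1.69 and Nfat5 at 14.99 ± 0.804. Below these were Nfatc1 at 9.95 ± 1.94, Ppp3cb at 7.46 ± 0.501, Nfatc3 at 5.54 ± 0.583, Nfatc2 at 2.90 ± 0.354 and Nfatc4 at 1.03 ± 0.302 CPM per kb. The ranges over the 3 nerves overlapped between Rcan2 and Ppp3ca and between Ppp3ca and Nfat5, and for no other neighbours in this order. In injured RaptorKO nerves Ppp3ca, at 5.01 ± 0.118 CPM per kb (SD, n = 3), lay below Ppp3cb at 7.78 ± 1.13, and its range overlapped that of Nfatc3 at 5.59 ± 1.09.

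Injury lowered 4 of the 9 members tested and raised 0, in controls and in RaptorKOs alike. The 4 were Nfat5, Rcan1, Rcan2 and Nfatc1 in both genotypes, and with the replicate number as a block Nfatc2 was also lower in RaptorKOs. Injury changed much of the transcriptome, with 65.3% of genes called in controls (32.9% lower and 32.4% higher) and 58.9% in RaptorKOs (28.5% lower and 30.5% higher). The 4 of 9 lower members stand beside these shares and nothing particular is read from them. At an unadjusted p below 0.05, which 69.1% of all genes passed in controls and 63.6% in RaptorKOs, 0 members were higher in either genotype, as with DESeq2 and the exact test. The 4 calls were kept under each of the alternative settings, also without both libraries of control 3.

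Nfat5 (chromosome 8, 107293470 to 107379517, plus strand), the osmotic stress factor, was the member with the largest injury response in controls. It was at 263, 292 and 272 CPM in contralateral and 122, 110 and 111 CPM in injured controls. Injured nerves held less than any contralateral nerve, a log2 fold change of -1.31 (SE 0.09, edgeR adjusted p = 1.44e-07). In RaptorKOs it was at 250, 218, 229 and 315 CPM in contralateral and 115, 124 and 130 CPM in injured nerves. The log2 fold change was -1.07 (SE 0.13, adjusted p = 5.55e-05). Between genotypes Nfat5 did not pass the test in contralateral nerves (log2 fold change -0.10, SE 0.12, adjusted p = 0.684), and in injured nerves its log2 fold change was 0.12 (SE 0.10).

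Nfatc1 was at 71.1, 61.7 and 90.1 CPM in contralateral and 50.6, 42.8 and 35.3 CPM in injured controls. The groups did not overlap, with a log2 fold change of -0.84 (SE 0.15, edgeR adjusted p = 0.000415). Control 3 held both the highest contralateral and the lowest injured value, and without both libraries of control 3 the log2 fold change was -0.56 (SE 0.14, adjusted p = 0.00526). In RaptorKOs the log2 fold change was -0.74 (SE 0.16, adjusted p = 0.0025), from 68.0 to 105 CPM in contralateral to 49.6 to 56.6 CPM in injured nerves. Of the other NFATc genes, Nfatc2 had a log2 fold change of -0.38 (SE 0.19) in RaptorKOs that did not pass the test (adjusted p = 0.111). It passed with the replicate number as a block (-0.44, adjusted p = 0.0173, RaptorKO contralateral 4 dropped) and without RaptorKO injured 3 (-0.57, adjusted p = 0.0322), and was -0.17 without RaptorKO injured 2 (adjusted p = 0.38). Nfatc3 and Nfatc4 lay between -0.09 and 0.05 in both genotypes.

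**Figure D3:**
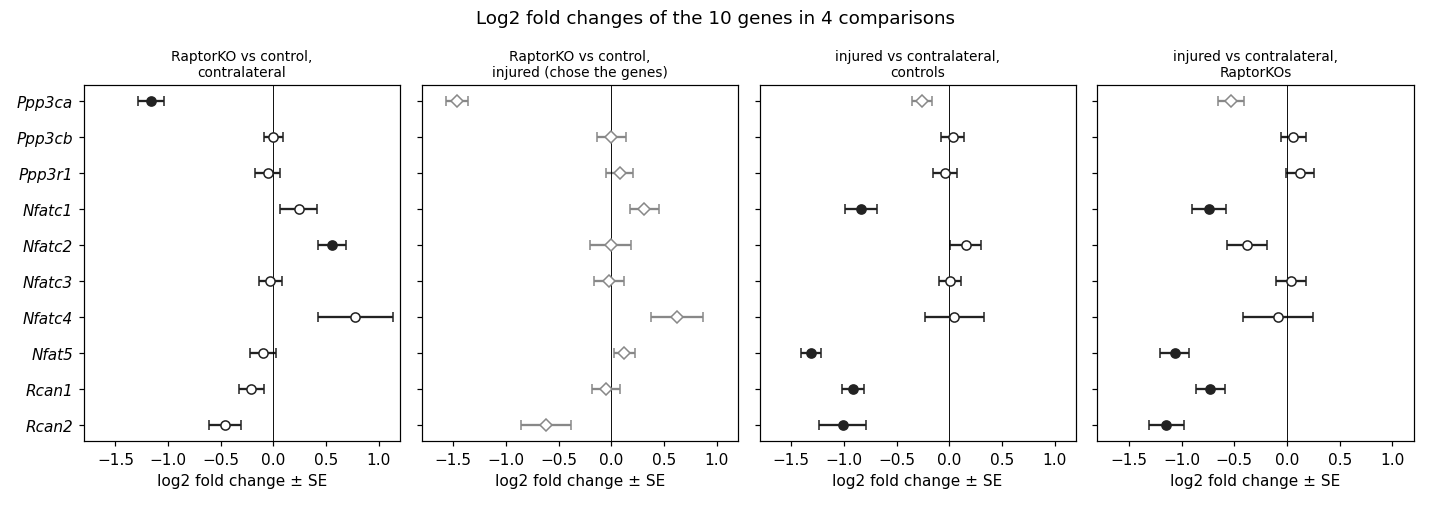
Log2 fold change of each gene (points, with SE as bars) in 4 comparisons, from left to right RaptorKO against control in contralateral and in injured nerves and injured against contralateral in controls and in RaptorKOs. Filled circles passed the test, open circles did not, and grey diamonds were not tested because injured nerves chose the genes. Ppp3ca is far to the left in both genotype panels, and the same 4 genes are filled in both injury panels.

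The promoters of the Rcan genes were examined because Rcan1 is a known NFAT target. RefSeq start windows (GRCm38.p6, 250 bases before to 50 after a start) were examined for 8 of the 10 genes. None was held for Ppp3ca, and Nfatc1 was left out of the search. The letters GGAAA, the core that NFAT proteins bind, and TGANTCA, the AP-1 motif whose factors pair with NFATc, were searched on both strands, and the motifs do not overlap in the matches shown. The window at the internal start of Rcan1, which gives the shorter transcript, held 3 GGAAA and 1 TGANTCA. Of 32851 windows of this length, 9.415% held 3 or more GGAAA, 7.81% held TGANTCA and 0.837% held both. The first Rcan1 window, of the longer transcript, held neither motif. Windows of Ppp3cb (4), Nfatc2 (3) and Nfatc4 (3) also held 3 or more GGAAA, so this is not particular to Rcan1. No examined window of the calcineurin or NFAT genes held TGANTCA. Of 3 Rcan2 windows, the first held 2 GGAAA and the third 1 TGANTCA. The matches are shown with 8 bases on either side, read along the gene, with the matched letters in capitals (TTTCC is GGAAA on the other strand).
Rcan1, 227 bases before the start (chr16:92400293-92400313, minus strand): tagcgcctTTTCCaccctccc
Rcan1, 193 bases before the start (chr16:92400259-92400279, minus strand): tagcatagGGAAAatgactaa
Rcan1, 163 bases before the start (chr16:92400229-92400249, minus strand): gtcacctcTTTCCagtagaaa
Rcan1, 110 bases before the start (chr16:92400174-92400196, minus strand): gcgggaccTGACTCAggaatttg
Rcan2, 25 bases before the start (chr17:43952966-43952988, plus strand): agcaccagTGACTCAgttcctca
A match of letters is a description and not a measured binding site. The counts are per gene, so the 2 Rcan1 transcripts cannot be told apart in these data.

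Rcan1 (chromosome 16, 92391953 to 92470867, minus strand) was almost identical in the 3 control contralateral nerves, at 70.5, 70.4 and 70.3 CPM. After injury controls held 37.0, 36.4 and 42.4 CPM, a fall by 0.91 on the log2 scale (SE 0.10, edgeR adjusted p = 8.59e-06). In RaptorKOs Rcan1 went from 58.6, 50.1, 73.1 and 57.5 CPM to 35.7, 40.0 and 34.5 CPM. The groups did not overlap and the log2 fold change was -0.73 (SE 0.14, adjusted p = 0.00112). Between contralateral genotypes it did not pass the test (log2 fold change -0.21, SE 0.12, adjusted p = 0.299), and 1 of 4 RaptorKO nerves lay above the controls. In injured nerves the genotypes differed by -0.05 (SE 0.13) on the log2 scale.

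Rcan2 (chromosome 17, 43801351 to 44039516, plus strand), another Rcan gene, was at 92.3, 94.4 and 67.9 CPM in control contralateral nerves. The RaptorKO contralateral nerves held 58.6, 59.9, 50.4 and 74.4 CPM. Only the highest RaptorKO nerve reached into the control range. The log2 fold change of -0.46 (SE 0.15) did not pass the test (edgeR adjusted p = 0.0864), and it passed without control contralateral 3 (-0.59, adjusted p = 0.0436), without RaptorKO contralateral 4, with DESeq2 and with no count filter. Injury went with 63.6, 33.4 and 33.6 CPM in controls (log2 fold change -1.01, SE 0.22, adjusted p = 0.00157) and 30.2, 31.3 and 22.2 CPM in RaptorKOs (log2 fold change -1.15, SE 0.17, adjusted p = 0.000157). All injured RaptorKO nerves lay below all injured controls, a log2 fold change of -0.62 (SE 0.24) that is given with no test and was -0.25 without control injured 1.

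The other genes of the pathway were read from 6 lists with 82 genes. In contralateral nerves 64 of them were tested, of which 1 was higher and 5 were lower in RaptorKOs, 6 of 64 in all beside the 10.2% called over all genes. Of the calcium entry and release genes, 1 of 15 was higher, Itpr2, an inositol trisphosphate receptor of the endoplasmic reticulum (22.4 to 28.1 CPM in controls, 29.4 to 40.3 CPM in RaptorKOs, log2 fold change 0.54, edgeR adjusted p = 0.0365). The Itpr2 call was lost in 6 of 14 alternatives, among them those that left out any 1 of the 3 control libraries. Of the calcineurin partners and inhibitors, 1 of 12 was lower. The quasi-likelihood test called 0 of 15 NFAT kinase, export and scaffold genes, 0 of 10 other calcineurin substrates and 0 of 5 NFATc target genes. At an unadjusted p below 0.05 these lists held 3, 2 and 1 genes, and DESeq2 called 1 in each while the exact test called 1 substrate, Dnm1. The shares of all genes at these settings are not given here, so nothing is read from these counts.

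The Nfat5 target genes held the other 4 of the 5 lower genes. Of the 7 listed, 4 were lower in RaptorKO contralateral nerves, beside 5.68% of all genes called lower. The median log2 fold change over the list was -0.53 against 0.01 for all genes tested, while Nfat5 itself did not pass the test. Akr1b3, the aldose reductase that makes sorbitol, was at 437, 384 and 296 CPM in control libraries, against 222, 212, 157 and 160 CPM in RaptorKO libraries (log2 fold change -0.96, SE 0.16, edgeR adjusted p = 0.00353). Hspa4l, a heat shock protein of the Hsp110 group, was at 147, 166 and 154 CPM against 103, 90.0, 78.7 and 85.2 CPM (log2 fold change -0.78, adjusted p = 0.00068). The genotypes did not overlap for either gene, and both calls held in each of 14 alternatives. Slc5a3, the sodium-coupled myo-inositol transporter, was at 60.6, 73.1 and 72.4 CPM against 54.4, 40.9, 45.3 and 46.2 CPM (log2 fold change -0.53, adjusted p = 0.0151). Hspa1b, a heat-inducible Hsp70 gene, was at 36.3, 26.6 and 39.4 CPM against 19.0, 19.5, 16.6 and 22.6 CPM (log2 fold change -0.78, adjusted p = 0.012). The calls of Slc5a3 and Hspa1b were each lost in 2 of 14 alternatives, and without control contralateral 3 only 2 of the 7 genes were called. Slc5a3 shares exons with Mrps6 on the same strand, which held at most 517 counts against 902. Hspa1b has a near-identical neighbour, Hspa1a, so its share of reads is uncertain.

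After crush, 6 of the 7 Nfat5 target genes were lower in controls and 1 was higher, and 6 of 7 were lower in RaptorKOs, where 32.9% and 28.5% of all genes tested were lower. Akr1b3 fell by 1.63 on the log2 scale in controls (SE 0.14, edgeR adjusted p = 7e-07) and by 0.998 in RaptorKOs (adjusted p = 0.000149). Slc38a2, a neutral amino acid transporter, went from 306 ± 34.6 to 112 ± 8.195 CPM in controls (SD, n = 3 each, log2 fold change -1.501, edgeR adjusted p = 1.75e-07). The log2 fold changes of Slc5a3 and Hspa4l in controls were -1.56 and -1.12. The exception in controls, named after its values were seen, was Slc6a6, the taurine transporter, which rose from 171 ± 35.4 to 393 ± 35.3 CPM (SD, n = 3 each, log2 fold change 1.15, edgeR adjusted p = 2.03e-05). In injured nerves, 1 of 6 target genes was past the thresholds between genotypes, Hspa4l (log2 fold change -0.57), and it was not without RaptorKO injured 1 (adjusted p = 0.0509).

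**Figure D4:**
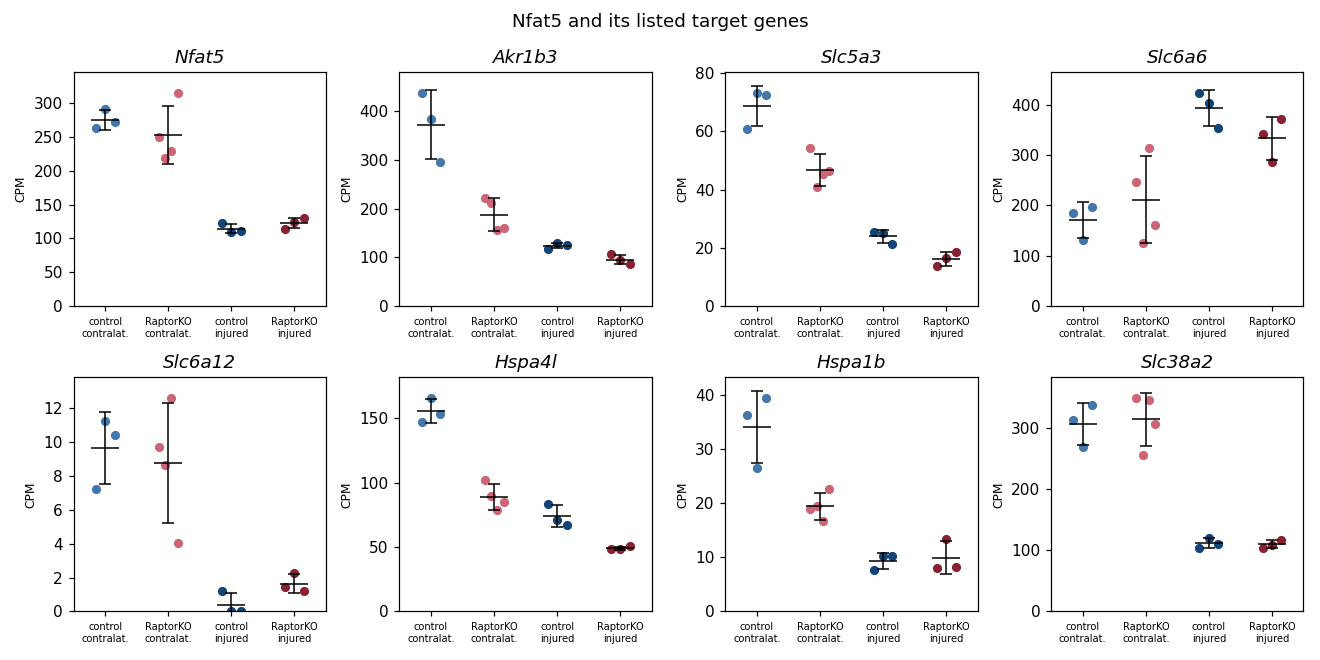
Level in CPM (y axis, from 0) of Nfat5 and the 7 listed Nfat5 target genes in the 4 groups (x axis), with a point for each nerve and a bar at the mean with its SD. Akr1b3, Slc5a3, Hspa4l and Hspa1b are lower in RaptorKO than in control contralateral nerves, and all but Slc6a6 are lower in the injured groups.

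Upstream of calcineurin, injury called calcium entry and release genes in both directions, as it did over all genes (32.4% higher and 32.9% lower in controls, 30.5% and 28.5% in RaptorKOs). In controls 3 of 15 rose and 8 fell, and in RaptorKOs 4 rose and 7 fell. In controls the log2 fold change was -2.41 for Plcb1, a phospholipase C (edgeR adjusted p = 4.11e-09), -1.42 for Itpr1 (adjusted p = 1.18e-07), -1.45 for Itpr3 (adjusted p = 2.19e-07) and -1.40 for Saraf, an inhibitor of store-operated calcium entry (adjusted p = 1.38e-08). In RaptorKOs these genes fell too, with log2 fold changes of -1.88, -1.12, -1.13 and -1.13. The calcineurin partners and inhibitors included 5 of 12 that rose in controls and 2 that fell, with Fkbp1a, the FK506-binding protein, up by 0.62 on the log2 scale (edgeR adjusted p = 0.000222). Downstream, 3 of 6 tested NFATc target genes rose and 3 fell in controls. The log2 fold change was -3.45 for Egr2, the transcription factor of myelinating SCs (edgeR adjusted p = 1.48e-10), whereas Egr3 rose by 2.72 (adjusted p = 6.58e-06). Egr2 is also on the SC marker list, of which 7 of 10 genes fell in controls. The remaining 10 of the 16 NFATc target genes were not tested, and Ifng, Cd40lg, Csf2 and Il3 held 0 counts in all libraries, which allows up to 3 counts in each. Of the NFAT kinase, export and scaffold genes, 3 of 15 rose and 5 fell in controls, and of 10 other calcineurin substrates 3 rose and 4 fell. Over all 6 lists injury raised 18 and lowered 28 of 65 genes in controls and raised 14 and lowered 24 in RaptorKOs.

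Between injured genotypes, where no test of a member is given, 3 of 64 pathway genes were past the thresholds as higher in RaptorKOs and 1 as lower, beside 8.54% of all genes tested. The 3 were Itpr2 (13.58 to 16.1 CPM in controls, 24.0 to 27.8 CPM in RaptorKOs), the phospholipase C gene Plcg1 (29.7 to 32.0 against 53.0 to 63.2 CPM) and Dnm1, a dynamin that calcineurin dephosphorylates in nerve terminals (41.4 to 50.01 against 75.6 to 86.4 CPM). None of these ranges overlapped, and the 3 genes stayed past the thresholds in each of 13 alternatives. Exons of Plcg1 overlap those of Zhx3 on the opposite strand, which held up to 418 counts against 801 for Plcg1, and whether counting used strand is not given in the sources used here.

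The genes whose levels followed Ppp3ca most closely were found by Pearson's r of log2 CPM over the 13 libraries among 12851 genes. The 5 highest were Cyp2j9, a cytochrome P450 (r = 0.98), the beta-tubulin gene Tubb4a (r = 0.97), Lix1 (r = 0.95), Tor3a, a torsin family gene (r = 0.94), and Mmgt1, a subunit of the membrane protein insertion complex of the endoplasmic reticulum (r = 0.93). Tubb4a, for instance, was at 82.2 ± 1.18 CPM (SD, n = 3) in control and 33.3 ± 3.21 CPM (SD, n = 4) in RaptorKO contralateral nerves, and at 66.2 ± 4.62 and 22.7 ± 4.43 CPM (SD, n = 3 each) in injured nerves. These values describe 4 groups of libraries and are not independent points. Among the members themselves, Nfat5 and Rcan1 (r = 0.91) and Nfat5 and Rcan2 (r = 0.82) were the pairs most alike, and Ppp3ca and Ppp3cb had r = 0.07.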

How the data were processed

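RNA from 13 sciatic nerves was sequenced. The authors trimmed the reads with Trimmomatic, aligned them to GRCm38 and estimated counts per gene with RSEM 1.2.22, and deposited these expected counts with no normalization. Reads that fit more than 1 gene were divided among them, so 24.9% to 27.9% of nonzero values per library are not whole. The labels name a TruSeq RNA kit and the methods a stranded one, and the strand setting of the counting is not given in the sources used here.

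The expected counts were rounded to whole numbers, and gene IDs were matched to GENCODE M21 for 40550 of 40787 genes (17160 without a count). The depth of 8200476 to 13581788 counts left Nfatc4 with the fewest counts of the 10 genes. The analysis used edgeR 4.0.16 (R 4.3.3, limma 3.58.1), with each comparison fitted on its own 2 groups as taken from the sample labels, with TMM factors, a filter of at least 50 counts in at least 2 libraries, the quasi-likelihood test and Benjamini-Hochberg adjustment over all genes tested. Calls needed an adjusted p below 0.05 and a fold change above 1.2. Log2 CPM used a prior count of 2. Per-kilobase levels divide CPM by the union of exons. A share was compared with an exact permutation test, and figures were drawn with matplotlib 3.10.9. The fitting code was tested on simulated data. Libraries were fitted without a replicate block, since the study's methods state none. Same-numbered injured and contralateral libraries of a genotype may be 2 nerves of 1 mouse. Their deviations from the group means correlated at -0.024 to 0.305, above 0.1 in 4 of 6 cases, and both libraries of control 3 shared the Xist difference, so values with the number as a block are given where they change a member's call after injury.

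All 10 members are named in each comparison, as are up to 4 called genes per list and comparison with the smallest p, and the 5 genes most correlated with Ppp3ca. A few list genes picked in this way are not reported here. The members, lists and rules were chosen with earlier results of these data known. Alternatives were RLE and upper-quartile factors, DESeq2 1.42.0, edgeR's exact test (the study's test), no filter, all libraries in 1 fit, a replicate block and leaving out each library. The transcript length for the shares and leaving out both libraries of control 3 were chosen after the data were seen.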

Additional observations from a re-analysis of the deposited data

Results flagged for a closer look

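Of 11 sets of 4 contralateral RaptorKO values examined for a library far from the others, 1 stood out. Nfatc3 was at 53.4 CPM in RaptorKO contralateral 2, while the other 3 nerves of this group lay between 64.6 and 66.3 CPM. The gap to the nearest of them was 0.868 of the whole range, above the 95% critical value of Dixon for 4 samples. Chance alone gives such a value in about 1 of 20 sets. Without this library Nfatc3 still did not pass the test between contralateral genotypes.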

How the results depend on the processing

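Fold changes of Ppp3ca between contralateral genotypes and of Nfat5, Rcan1, Rcan2 and Nfatc1 after injury kept their direction and their call in every alternative run. With the replicate number as a block, Nfatc2 after injury in RaptorKOs passed (-0.44), as it did without RaptorKO injured 3 (-0.57), and no other call after injury changed among the 9 members tested with the block. Between genotypes, where the numbers join different mice, same-numbered deviations correlated at -0.049 to 0.301. With the replicate block, which drops RaptorKO contralateral 4, the contralateral comparison called 2 members lower and 3 higher instead of 1 and 1 (Rcan2, Nfatc1 and Nfatc4 were added) and 5 pathway genes higher instead of 1. The share of all genes called with this block is not given here, so nothing is read about the members from these counts.

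In the contralateral comparison 2 members were lower with DESeq2 and with no filter, and 0 were higher with all libraries in 1 fit. Higher pathway genes numbered 3 with DESeq2, 2 with the exact test, 2 with no filter and 3 with all libraries in 1 fit, and 8 were lower with DESeq2. In injured nerves 3 pathway genes were lower with the exact test, and 2 were lower and 5 higher with all libraries in 1 fit. Leaving out 1 library at a time gave 1 to 2 members lower and 0 to 1 higher, 2 to 7 pathway genes lower, 0 to 2 higher and 2 to 4 Nfat5 target genes lower in contralateral nerves, and 0 to 1 pathway genes lower in injured nerves. Leaving out a library leaves 2 or 3 per group. The cause of these changes was not tested, and the share of all genes called under each setting is not given here.

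Signs turned only for log2 fold changes near 0 that never passed the test. Ppp3cb in contralateral nerves was 0.0009 with RLE and 0.0144 with upper-quartile factors, Ppp3r1 after injury in controls 0.0468 with upper-quartile factors and 0.0028 with no filter, and Nfatc4 after injury in RaptorKOs 0.0062 with upper-quartile factors. Without both libraries of control 3, Ppp3cb after injury was -0.0391. Leaving out 1 library, contralateral values ran from -0.0552 to 0.042 (Ppp3cb), -0.1213 to 0.0501 (Ppp3r1) and -0.1101 to 0.0418 (Nfatc3). Injury values in controls ran from -0.0501 to 0.1293 (Ppp3cb), -0.1126 to 0.06 (Ppp3r1), -0.082 to 0.0854 (Nfatc3) and -0.0964 to 0.3 (Nfatc4), and in RaptorKOs from -0.0725 to 0.1321, -0.0268 to 0.1911, -0.1154 to 0.1747 and -0.2826 to 0.27 for the same genes. The catalytic share of Ppp3ca was 50.05% and 28.9% with transcript lengths, as given above.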
